A study of Mus musculus with 12 samples.

Results

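A set of 9 genes of vitamin A (retinoid) handling were followed in tumors of the mouse hindbrain choroid plexus (CP) and in normal CP. They were chosen by gene symbol, with earlier results of these same data known (Rlbp1 stood among the largest differences at P0), so their tumor differences are given as a description without p-values. All 9 of 9 genes had a probe that passed the filter on dim signal, out of 12379 genes tested and 19053 genes with a named probe. The genes had 13 probes in all, and 12 of them passed: the second Stra6 probe was not detected on any array. Each gene was read from its brightest probe, and the second probes of Adh1, Aldh1a2 and Rdh5 are given beside it. Every level is a background-corrected, quantile-normalized intensity on the log2 scale, and a difference of 1 on that scale is a doubling. A probe counted as detected where its detection p-value was under 0.05.

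RNA of 12 pooled samples was hybridized to Illumina mouse BeadChips, with 3 samples in each of 4 groups: P0 tumor, P0 wild-type CP, P21 tumor and P21 wild-type CP. Tumors came from Math1-cre;Rosa26-NICD1 mice, which carry a Cre recombinase driven by Math1, a gene of hindbrain progenitors, and an allele at the Rosa26 locus for NICD1, the intracellular and active part of the Notch1 receptor. Controls were labelled wild type, and all animals had the C57BL/6 background and were taken at day 0 or day 21 after birth. A sample was a pool from several animals of like genotype. The number of animals and their litters are not given, and p-values therefore reflect the spread among pools, part of which may be technical. All P0 arrays lay on 1 BeadChip and all P21 arrays on another, and effects of age and of BeadChip cannot be told apart. On both BeadChips the tumor arrays took the first 3 positions and the wild-type arrays the last 3, so position and genotype cannot be told apart either.

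Retinol travels in blood bound to RBP4 and transthyretin and enters cells through the receptor STRA6. Alcohol and retinol dehydrogenases oxidize it to retinal, aldehyde dehydrogenases of the ALDH1A family turn retinal into retinoic acid, and CRABP2 carries retinoic acid to its nuclear receptors. In the retinal pigment epithelium of the eye a second route, the visual cycle, rebuilds the light-sensitive cis form of retinal: RPE65 makes cis-retinol, RDH5 oxidizes it, and RLBP1 binds the product. The choroid plexus secretes transthyretin, and the plexus and the meninges around it are known sources of retinoic acid in the developing hindbrain.

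Median raw signals ran from 134 to 179.9 per array, and 19043 to 23632 probes were detected per array. At each age the median raw signal, before normalization, was higher on every tumor array than on every wild-type array. It was 160.7 to 179.9 against 144.2 to 153.9 at P0, and 154.9 to 156.4 against 134 to 141.2 at P21. The part of this in the differences of genes near background was not tested. Sample 1 of the P21 tumors stood apart: the summed intensity of the neuron markers was 26962 there and between 1165 and 2646 on the other arrays, and that of the oligodendrocyte markers was 11907 there and between 1563 and 3118 on the others. Differences of the 9 genes that involve P21 tumors are therefore also given without that sample, as are the calls of the other pathway genes. The tissue label was checked against CP epithelial markers. Ttr, the transthyretin gene that marks this epithelium, lay between 15.91 and 16.05 on all 12 arrays, near the top of the measurable range. In bulk tissue such as this, fewer cells of a type and less RNA per cell cannot be told apart.

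Among the 9 genes the tumor difference at P0 was small apart from Rlbp1 and Adh1, whereas at P21 most of them differed and in both directions. At P0, 1 gene passed the adjusted threshold of 0.05 (Rlbp1, lower), where 11.3% of all genes tested passed, 5% higher and 6.28% lower. At P21, 6 genes passed: Rpe65, Aldh1a1, Aldh1a2 and Rbp4 were higher in tumors, and Adh1 and Rlbp1 were lower. Of all genes tested at P21, 17.9% passed, 10.5% higher and 7.44% lower. Since the members were chosen with these comparisons known, nothing is read from their counts.

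**Figure D1:**
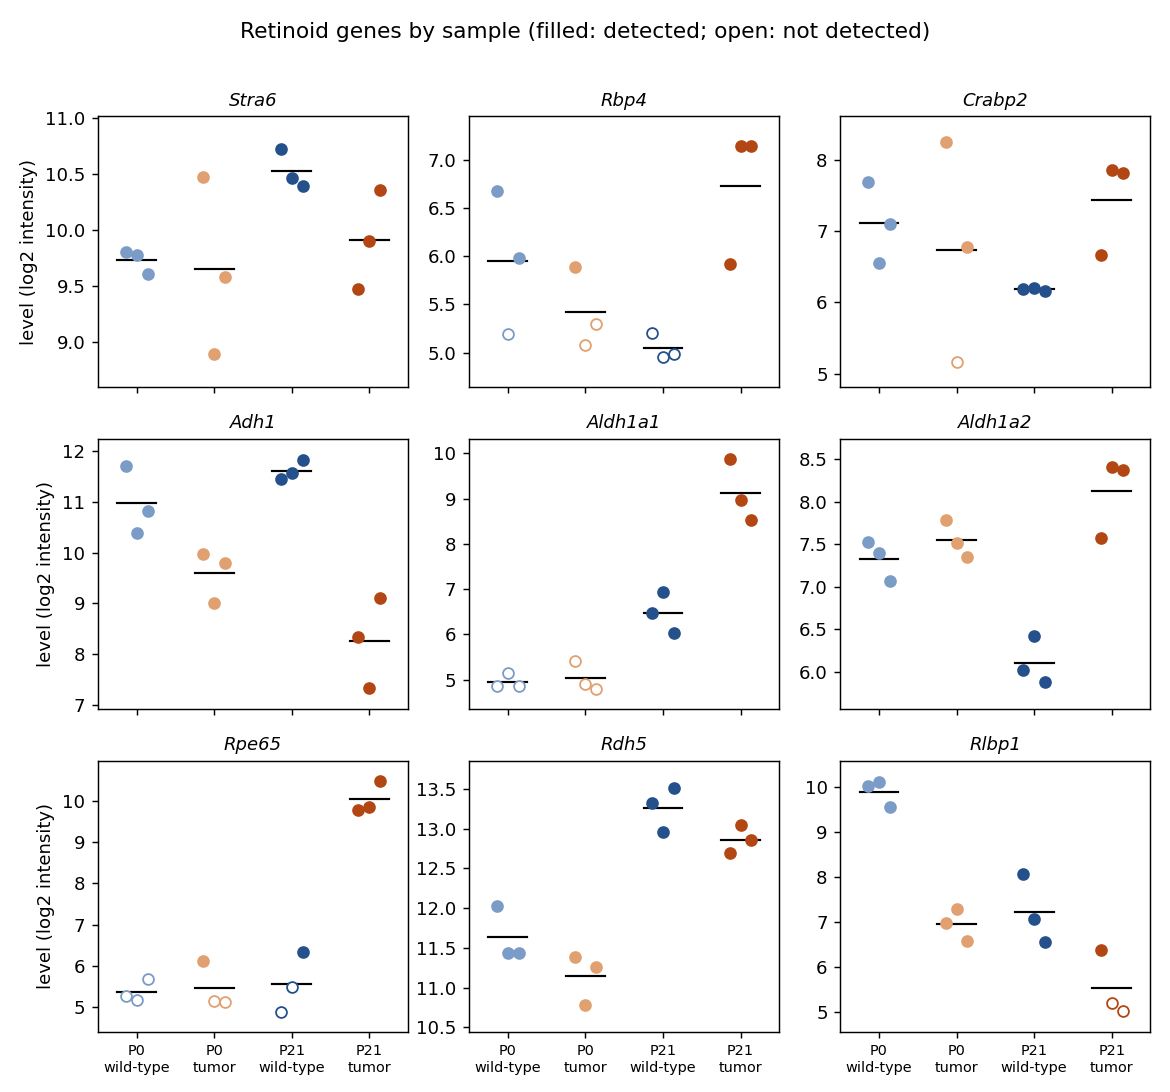
Levels (log2 normalized intensity, vertical axis of each panel) of the 9 retinoid genes in each of the 12 samples, by group; black lines are group means of 3 samples, filled points were detected and open points were not. Rpe65 and Aldh1a1 are high in the 3 P21 tumors, the group mean of Adh1 is lowest there, and Rlbp1 is highest in the 3 P0 wild-type samples.

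Stra6, the membrane receptor that takes up retinol from RBP4, was strongly detected on every array. Its levels were 10.48, 8.89 and 9.57 in P0 tumors and 9.80, 9.77 and 9.61 in P0 wild-type CP. At P21 they were 9.47, 9.90 and 10.35 in tumors and 10.72, 10.47 and 10.39 in wild-type CP. The P0 tumors spread to both sides of their controls, and at P21 all 3 tumors lay below the lowest control, the highest of them by a narrow margin. The differences were -0.08 ± 0.34 at P0 and -0.62 ± 0.34 at P21 (difference ± SE, n = 3 per group, with the spread estimated over all 12 arrays), and neither passed. Without P21 tumor 1, the lowest of its group, the P21 difference was -0.40. The second Stra6 probe stayed between 4.77 and 5.42 and adds no measurement.

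Rbp4, the carrier of retinol in blood, was near the detection limit in most samples. It read 5.88, 5.08 and 5.29 in P0 tumors, where it was detected in 1 of 3, and 6.68, 5.19 and 5.98 in P0 wild-type CP, where it was detected in 2 of 3. P21 tumors read 5.91, 7.14 and 7.14, all detected, and P21 wild-type CP read 5.20, 4.95 and 4.99, none detected. The P21 groups did not overlap, and the 2 highest values of the series were P21 tumors 2 and 3. Against wild-type signals that were not well above background, Rbp4 was at least 1.98-fold higher in P21 tumors (fitted difference 1.68 ± 0.40). That bound sets the mean of the bright group against the lowest signal well above background on each dim array, or the probe's own signal where that was higher. The difference was 2.09 without P21 tumor 1, and it no longer passed without P21 tumor 2, at 1.48. At P0 the difference was -0.53 ± 0.40, and the groups overlapped.

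Crabp2, which delivers retinoic acid to its receptors, varied most between replicates. P0 tumors read 8.26, 5.17 and 6.78, a span from the highest Crabp2 level of the series to the only array on which it was not detected. P0 wild-type CP read 7.69, 6.55 and 7.10, inside that span. At P21 the tumors read 6.66, 7.86 and 7.82 and the wild-type samples 6.20, 6.20 and 6.17, so the groups did not overlap and the controls were nearly identical. The differences were -0.38 ± 0.61 at P0 and 1.26 ± 0.61 at P21, and neither passed. The P21 difference did pass with the replicate block and in a fit of the 6 P21 arrays alone, and it was 1.65, not past the threshold, without P21 tumor 1. P0 tumor 2, the lowest for Crabp2, was also the lowest P0 tumor for Stra6, Rbp4, Adh1 and Rdh5.

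Adh1 encodes an alcohol dehydrogenase that oxidizes retinol, and it was among the more abundant signals in normal CP. Wild-type CP read 11.70, 10.39 and 10.82 at P0 and 11.45, 11.57 and 11.82 at P21. Tumors read 9.97, 9.01 and 9.80 at P0 and 8.34, 7.34 and 9.11 at P21. Every tumor lay below every wild-type sample of its age, and the gap was wider at P21. The difference was -1.37 ± 0.44 at P0 and -3.35 ± 0.44 at P21, the second being 10.2-fold and past the threshold. With the replicate numbers as a block, Adh1 also passed at P0 and the P0 count rose from 1 gene to 2. The P0 samples numbered 1 and 2 bear out that block, and those numbered 3 hardly do. It also passed at P0 without wild-type sample 2 of P0, or, at an unaltered -1.37, without P21 tumor 2 or 3, which changes only the estimate of the spread. The second Adh1 probe gave -1.36 at P0 and -3.31 at P21, both past the threshold in a fit of all probes kept, where the brightest probe did not pass at P0. The P21 difference of the brightest probe was -3.39 without P21 tumor 1.

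Aldh1a1, an enzyme that makes retinoic acid from retinal, was not detected on any of the 6 P0 arrays, where it read between 4.80 and 5.42. At P21 it was detected in every sample, at 9.87, 8.98 and 8.54 in tumors and 6.48, 6.93 and 6.03 in wild-type CP. All 3 P21 tumors thus lay above all P21 controls. The P21 difference was 2.65 ± 0.33, and it was 2.28 without P21 tumor 1, which had the highest Aldh1a1 level. At P0 the fitted difference was 0.08 ± 0.33 between signals that were both below background.

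Aldh1a2, the related enzyme that makes most retinoic acid in the embryo, was detected on all 12 arrays. It read 7.79, 7.51 and 7.35 in P0 tumors and 7.52, 7.40 and 7.07 in P0 wild-type CP, groups that overlapped. At P21 it read 7.57, 8.41 and 8.37 in tumors and 6.02, 6.41 and 5.88 in wild-type CP, with every tumor above every control. The differences were 0.22 ± 0.26 at P0 and 2.01 ± 0.26 at P21, and the latter was 2.29 without P21 tumor 1. The second Aldh1a2 probe was dimmer and gave -0.24 at P0 and 1.74 at P21. In P21 wild-type CP it was not detected on any array, so its P21 difference is also bounded, at least 1.98-fold.

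**Figure D2:**
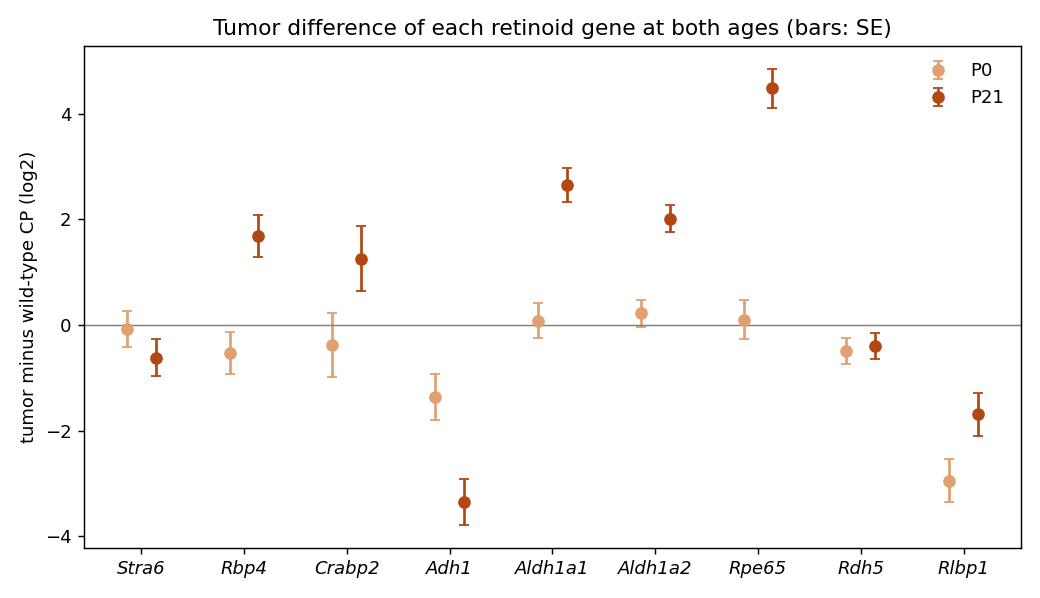
Tumor minus wild-type difference (log2, vertical axis) of each gene at P0 and at P21, with bars of 1 SE from the fit over all 12 arrays (3 samples per group). At P21 Rpe65 is highest at 4.48 and Adh1 lowest at -3.35, while at P0 Rlbp1 stands lowest at -2.95 and most other genes are close to 0.

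The 3 visual cycle genes gave 3 different patterns, so the DNA around their starts is shown here. Each window holds 300 bases, 250 before and 50 after a transcript start in the RefSeq annotation of build GRCm38.p6, written 5′ to 3′ on the strand of the gene. The annotated span of each of these genes begins further upstream, so other starts may exist. Capitals mark matches to 4 short motifs searched on both strands: TAATCC (bound by OTX and CRX factors), CATGTG (an E-box bound by MITF), TGGGAA (bound by RBPJ, the DNA-binding partner of Notch) and AGGTCA (a half-site of nuclear receptors such as those for retinoic acid). The windows are chr3:159598931-159599230 (plus strand) for Rpe65, chr10:128919248-128919547 (minus strand) for Rdh5 and chr7:79386978-79387277 (minus strand) for Rlbp1.
Rpe65: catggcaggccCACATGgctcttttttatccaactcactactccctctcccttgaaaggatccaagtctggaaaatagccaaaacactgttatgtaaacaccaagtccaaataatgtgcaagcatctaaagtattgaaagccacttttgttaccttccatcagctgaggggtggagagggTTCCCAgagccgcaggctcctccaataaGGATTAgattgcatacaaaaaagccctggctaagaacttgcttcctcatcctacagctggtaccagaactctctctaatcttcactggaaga
Rdh5: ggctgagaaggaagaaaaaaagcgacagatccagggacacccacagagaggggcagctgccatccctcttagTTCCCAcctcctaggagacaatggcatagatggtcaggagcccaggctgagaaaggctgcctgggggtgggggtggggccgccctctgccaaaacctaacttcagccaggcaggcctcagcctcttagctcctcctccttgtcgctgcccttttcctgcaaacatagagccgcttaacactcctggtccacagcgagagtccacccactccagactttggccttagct
Rlbp1: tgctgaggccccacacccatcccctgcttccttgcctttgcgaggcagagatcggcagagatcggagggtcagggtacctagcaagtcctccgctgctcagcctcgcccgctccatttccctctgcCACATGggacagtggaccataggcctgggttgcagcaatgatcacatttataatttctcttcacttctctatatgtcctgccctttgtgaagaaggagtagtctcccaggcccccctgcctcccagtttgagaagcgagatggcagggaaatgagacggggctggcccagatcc

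Every match found was the reverse complement of its motif. The Rpe65 window held 3 matches: CACATG from base -239, TTCCCA from base -70 and GGATTA from base -42, counted from the transcript start. The Rdh5 window held TTCCCA from base -178, and the Rlbp1 window held CACATG from base -124. No matches overlapped. The table held 13 windows for 8 of the 9 genes (Crabp2 was not among them), and the only other match was TTCCCA from base -239 in 1 of the 4 Stra6 windows. Across 32851 windows of the table, TAATCC occurred in 7.06%, CATGTG in 14.2%, TGGGAA in 25.6% and AGGTCA in 16.3%. Matches this frequent describe the letters of a window and say nothing of binding.

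Rpe65, the isomerase of the visual cycle, was close to background everywhere except in P21 tumors. It read 6.13, 5.16 and 5.13 in P0 tumors, with 1 of 3 detected, and 5.27, 5.17 and 5.68 in P0 wild-type CP, with none detected. It read 9.79, 9.86 and 10.49 in P21 tumors, all detected, and 4.88, 5.48 and 6.33 in P21 wild-type CP, with 1 of 3 detected. The lowest P21 tumor thus exceeded the highest of the 9 other samples by more than the whole range of those samples. The fitted P21 difference was 4.48 ± 0.37, and it was 4.61 without P21 tumor 1. Since 2 of the 3 controls were not detected, their own levels are uncertain and so is the size of the difference. At P0 the difference was 0.10 ± 0.37.

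Rdh5, the dehydrogenase that follows RPE65 in the cycle, had a very bright signal in every sample. It read 11.39, 10.78 and 11.26 in P0 tumors and 12.03, 11.43 and 11.44 in P0 wild-type CP. It read 12.69, 13.05 and 12.85 in P21 tumors and 13.32, 12.96 and 13.51 in P21 wild-type CP. The wider separation was by age: every P21 sample lay above every P0 sample. At P0 every tumor also lay below every wild-type sample, by a narrow margin, and the P21 groups overlapped. The tumor differences were -0.49 ± 0.24 at P0 and -0.40 ± 0.24 at P21 (-0.31 without P21 tumor 1), and neither passed. The 2 probes of Rdh5 disagreed at P0, since the dimmer one averaged 6.81 in tumors and 6.39 in wild-type CP, the opposite order, and at P21 it averaged 7.63 and 8.05.

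Rlbp1, which encodes the binding protein of cis-retinal, had its highest levels in newborn normal CP. P0 wild-type CP read 10.02, 10.13 and 9.57 and P0 tumors read 6.99, 7.31 and 6.59. P21 wild-type CP read 8.08, 7.07 and 6.57 and P21 tumors read 6.40, 5.21 and 5.02, where it was detected in 1 of 3. Tumors lay below their controls at both ages, with a gap of over 2 log2 units between the P0 groups and a narrow gap at P21. The difference was -2.95 ± 0.41 at P0, or 7.71-fold, and -1.69 ± 0.41 at P21. The P21 difference was -2.12 without P21 tumor 1. It no longer passed without P21 tumor 2 (-1.53), without P21 tumor 3 (-1.43) or without P21 wild-type sample 1 (-1.27), the brightest control.

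The change with age was tested within wild-type CP and within tumors by limma, with Benjamini-Hochberg adjustment over all 12379 genes. These tests use the same arrays as the comparisons known when the genes were chosen, so they are not independent of that choice. In wild-type CP 4 of the 9 genes changed from P0 to P21, 2 higher and 2 lower, where 20.3% of all genes changed, 7.38% higher and 13% lower. Rdh5 rose by 1.63 ± 0.24 (adjusted p = 0.00057), and Aldh1a1 rose from below background by at least 1.61-fold (fitted 1.52 ± 0.33). No p is given for Aldh1a1, since it passed the filter on dim signal only through the P21 arrays, where it is high. The Aldh1a1 call was lost with no background correction (0.61) and with the authors' deposited values (0.66). Rlbp1 fell by 2.67 ± 0.41 (adjusted p = 0.000783), and Aldh1a2 fell by 1.22 ± 0.26 (adjusted p = 0.0052). Normal CP thus held more Rdh5 and less Rlbp1 at P21, 2 partners of the same cycle. Stra6 (0.80, adjusted p = 0.124), Adh1 (0.64, 0.336), Rpe65 (0.19, 0.760), Rbp4 (-0.90, 0.135) and Crabp2 (-0.93, 0.319) did not pass. Rbp4 did pass without P0 wild-type sample 2 (-1.28, adjusted p = 0.0375), and Stra6 without P0 tumor 1 (0.80, adjusted p = 0.0472). Stra6 also passed in a fit of the 6 wild-type arrays alone (0.80, adjusted p = 0.0177).

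In tumors 6 of the 9 genes changed with age, 4 higher and 2 lower, where 20.2% of all genes changed, 9.94% higher and 10.3% lower. Rpe65 was 4.57 ± 0.37 higher in the fit, a value given without a p because it passed the filter on dim signal only through the P21 tumors and was detected in 1 of 3 P0 tumors. Aldh1a1 rose by at least 11.0-fold from below background (fitted 4.09 ± 0.33), also without a p, since only P21 arrays carried it past that filter. Rdh5 rose by 1.72 ± 0.24 (adjusted p = 0.000297), close to its rise in wild-type CP. Without P21 tumor 1 these values were 4.70 for Rpe65, 3.72 for Aldh1a1 and 1.81 for Rdh5. The other 3 calls were weaker than that of Rdh5. Rbp4 rose by 1.31 ± 0.40 (adjusted p = 0.0351), Rlbp1 fell by 1.42 ± 0.41 (0.0296) and Adh1 fell by 1.33 ± 0.44 (0.0481). Without P21 tumor 1 the Adh1 change no longer passed (-1.37, adjusted p = 0.0834), and Aldh1a2 passed instead (0.84, adjusted p = 0.031, against 0.57 and 0.144 with all arrays). Without P21 tumor 2 the calls of Adh1 (-0.87, adjusted p = 0.187), Rbp4 (1.11, adjusted p = 0.129) and Rlbp1 (-1.25, adjusted p = 0.106) were all lost. Other single arrays also ended these calls: P0 tumors 1 and 3, P0 wild-type sample 3 and each P21 wild-type sample for Adh1 (adjusted p 0.0629 to 0.149), P0 tumors 2 and 3, P21 tumor 3 and each P21 wild-type sample for Rbp4 (0.0505 to 0.112), and P0 tumors 1 and 2 and P21 tumor 3 for Rlbp1 (0.0747 to 0.101). Other processing ended them too: no background correction for all 3 genes, and the authors' values and median scaling for Adh1 and Rlbp1. So did an offset of 50 for Rlbp1, no detection filter and the 6 tumor arrays alone for Adh1 and Rbp4, and cyclic loess, the mean of probes and the probe-level fit for Adh1. The call of Rdh5 held on leaving out any 1 of the 12 arrays. Those of Rpe65 and Aldh1a1 held too, but nothing is read from that, since only P21 arrays carried both past the filter. Stra6 (0.26, adjusted p = 0.645) and Crabp2 (0.71, adjusted p = 0.461) did not pass.

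The change of the tumor difference with age was taken as the P21 difference minus the P0 difference. For the 9 genes it is made of the same comparisons that were known when they were chosen, so it is a description and carries no p-values here. It passed the threshold for 4 of the 9 genes, all in the positive direction, where 4.43% of all genes passed, 3.13% positive and 1.3% negative, and nothing is read from that count. Its value was 4.38 ± 0.53 for Rpe65, 2.57 ± 0.47 for Aldh1a1, 1.80 ± 0.36 for Aldh1a2 and 2.21 ± 0.56 for Rbp4. At P0 these 4 genes differed by 0.22 or less, except Rbp4, which was 0.53 lower in tumors, and the P0 signals of Aldh1a1 and, on 5 of 6 arrays, of Rpe65 were not detected. Rpe65 was detected on 5 arrays in all and passed the filter only through the P21 tumors, where it is high. Without P21 tumor 1 the values were 4.51 for Rpe65, 2.62 for Rbp4, 2.20 for Aldh1a1 and 2.07 for Aldh1a2, all past the threshold. Without P21 tumor 2, Aldh1a2 (1.65) and Rbp4 (2.01) no longer passed, and Rbp4 also failed to pass on leaving out any of 8 other arrays.

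For the other 5 genes the change was -1.98 ± 0.62 for Adh1, 1.25 ± 0.58 for Rlbp1, 1.64 ± 0.86 for Crabp2, -0.54 ± 0.48 for Stra6 and 0.09 ± 0.34 for Rdh5, and none of these 5 passed. With the replicate block Adh1 and Rlbp1 passed as well, as did Rlbp1 with no background correction (1.36). Adh1 also passed without P0 wild-type sample 1 (-2.34) and without P21 tumor 3 (-2.40). The P0 samples numbered 1 and 2 deviated together by replicate number, those numbered 3 hardly did, and the samples of P21 did not. The block is thus borne out for P0 alone, and there only in part.

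The 9 genes did not move as 1 group across the arrays. As a description over the 12 arrays, which fall into 4 groups and on 2 BeadChips, Pearson's r between 2 of the genes ran from -0.783 (Adh1 and Aldh1a2) to 0.890 (Aldh1a1 and Rpe65). Rbp4 and Crabp2 had r = 0.798, and both were higher in P21 tumors 2 and 3 than in P21 tumor 1. For Rpe65 the genes outside the set with the most similar levels were Cyp2e1 (r = 0.982), an alcohol-inducible cytochrome, and Dio3 (0.979), the deiodinase that inactivates thyroid hormone. For Aldh1a1 they were Bbox1 (0.981), the last enzyme of carnitine synthesis, and Fgf1 (0.978), and for Rdh5 Ckmt2 (0.982), a mitochondrial creatine kinase, and Sod3 (0.977), the extracellular superoxide dismutase. Adh1 was most like Wrap73 and Fam122b (both 0.977), Rlbp1 like Gdpd1 (0.972) and Cmpk1 (0.967), and Aldh1a2 like D630003M21Rik (0.977) and the amino acid transporter gene Slc1a4 (0.958). Rbp4 was most like Crygn (0.957) and Fam183b (0.954). Stra6 was most like Tspo (0.947), a mitochondrial membrane protein gene, and Exosc5 (0.921), and Crabp2 like S100a6 (0.921) and 4930533K18Rik (0.914).

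Among 76 other genes of the retinoid pathway, 69 had a probe and 46 were tested. These lists and the marker lists below were also chosen with earlier results of these data known. Tests of their genes are thus not independent of those results. At P0 1 of the 46 was higher in tumors and 5 were lower, and at P21 3 were higher and 5 lower, beside the shares of all genes given above. Without P21 tumor 1 the P21 count fell from 8 genes to 5, as Meis2 (-0.76, adjusted p = 0.052), Dgat1 (-0.77, adjusted p = 0.0618) and Hoxb4 (-1.17) no longer passed, and Lrp2 (3.77), Cyp1b1 (2.04), Cyp2s1 (-1.49), Rdh12 (-2.11) and Bhlhe40 (1.11) still did. Their median difference was -0.14 at P0 and 0.06 at P21. The largest was Lrp2, the endocytic receptor megalin that takes up RBP4 with its retinol. Lrp2 read 10.13, 10.72 and 10.36 in P0 tumors and 8.43, 8.47 and 8.66 in P0 wild-type CP. At P21 it read 9.66, 10.25 and 10.13 in tumors and 6.67, 6.61 and 5.99 in wild-type CP, with no overlap at either age. Its differences were 1.88 ± 0.24 (adjusted p = 0.00042) at P0 and 3.59 ± 0.24 (adjusted p = 1.2e-06) at P21, and they differed between the ages by 1.71 ± 0.34 (adjusted p = 0.0143).

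Of 9 uptake, transport and storage genes tested, Lrp2 was the only one to pass limma's test as higher in tumors at either age. At an unadjusted p under 0.05, 2 were higher and 4 lower at P0, and 1 was higher and 3 lower at P21. Bco1 was 0.66 higher at P0 without passing (adjusted p = 0.0799). Lpl, a lipase that also frees retinol from its esters, fell at P0 by 1.56 ± 0.29 (adjusted p = 0.00484), as did Rbp2, a cellular retinol-binding protein gene, by 0.99 (adjusted p = 0.048). At P21 Dgat1, which can esterify retinol, fell by 0.94 (adjusted p = 0.016). Ttr differed by -0.04 (adjusted p = 0.902) and -0.11 (adjusted p = 0.669), at a signal close to the top of the scale, where differences are compressed. Crabp1, the relative of Crabp2, differed by -0.29 at P0 and -0.04 at P21 and did not pass. Lrat, the main esterifying enzyme of retinol, was not detected on any array.

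Of 13 other dehydrogenases and reductases tested, none passed in limma's test at P0, where 3 had an unadjusted p under 0.05 and were lower, and 1 passed at P21. That gene was Rdh12, a reductase of retinal, which fell by 1.90 ± 0.24 (adjusted p = 0.000166). Rdh10, the main embryonic retinol dehydrogenase, differed by -0.47 (adjusted p = 0.200) and -0.43 (adjusted p = 0.219), and Dhrs3, which reduces retinal back to retinol, by 0.17 and 0.04, without passing. Only 3 further genes of retinoic acid synthesis and breakdown could be tested. Cyp1b1, a cytochrome that can oxidize retinol and retinal, rose at P21 by 2.06 ± 0.24 (adjusted p = 8.56e-05), and its difference changed between the ages by 1.88 ± 0.34 (adjusted p = 0.0086). Cyp2s1, a cytochrome that can oxidize retinoic acid, fell by 1.27 ± 0.20 at P0 (adjusted p = 0.00186) and by 1.59 at P21 (adjusted p = 0.000167). Cyp26a1 and Cyp26b1, the retinoic acid hydroxylases, were not detected on any array.

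None of 10 receptors and coregulators passed in limma's test at either age. At an unadjusted p under 0.05 there were 2 higher and 2 lower at P0 and 0 at P21. Rara differed by 0.29 (adjusted p = 0.423) and 0.24 (adjusted p = 0.509). Rarb, a receptor gene that retinoic acid itself induces, differed by -0.68 (adjusted p = 0.188) at P0 and 0.12 (adjusted p = 0.837) at P21. Of 13 retinoic acid target genes tested, 2 fell at P0, and at P21 1 rose and 2 fell. Meis2, a homeobox gene, fell at both ages, by 1.00 (adjusted p = 0.0175) and 0.96 (adjusted p = 0.0132). Hoxb5 was at least 1.45-fold lower in tumors at P0 and Hoxb4 at least 1.77-fold lower at P21. Both passed the filter on dim signal only through the wild-type group in which they were high, so their direction was fixed by the filter. Bhlhe40, a transcriptional repressor gene, rose at P21 by 1.04 (adjusted p = 0.0102). The targets past the threshold at P21 thus lay in both directions, but the lower ones were not firm. The direction of Hoxb4 was fixed by the filter, and Meis2 no longer passed without P21 tumor 1 (-0.76, adjusted p = 0.052).

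**Figure D3:**
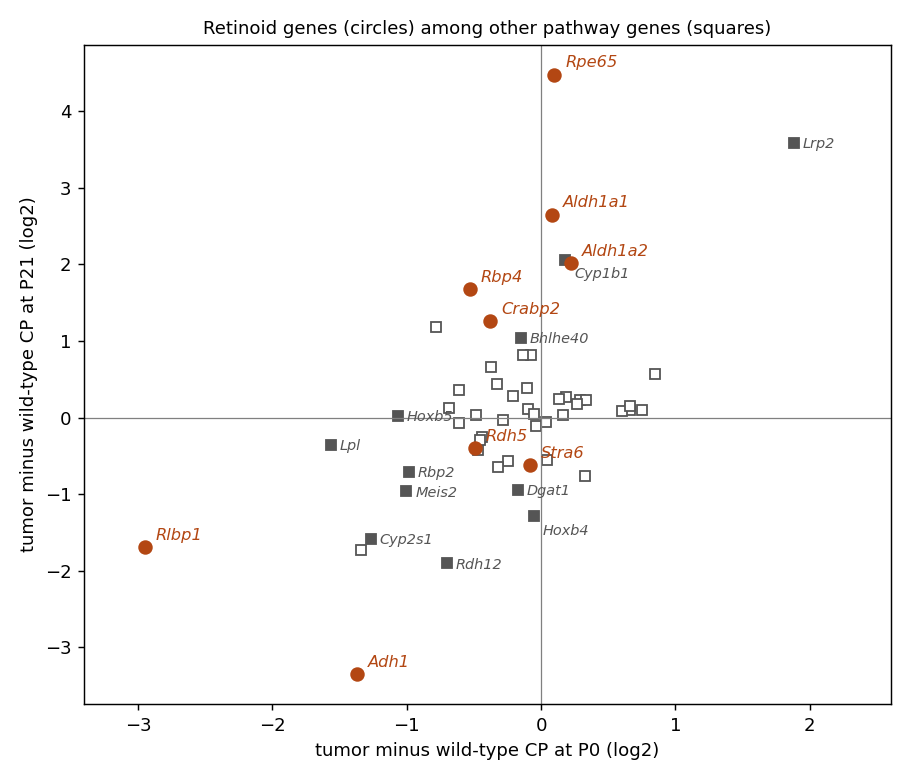
Tumor minus wild-type difference (log2) at P0 (horizontal axis) against P21 (vertical axis) for the 9 retinoid genes (circles) and the 46 other pathway genes tested (squares, filled and named where a gene passed at P0 or P21); each point rests on 3 samples per group. Most squares lie near 0 on both axes, and Lrp2 is the square farthest from 0, at 1.88 and 3.59.

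Because RPE65, RDH5 and RLBP1 are best known from the pigment epithelium of the eye, 14 of its partner genes were measured beside them. Of 11 tested, none rose in limma's test (0 also at an unadjusted p under 0.05), 2 fell at P0 and 3 fell at P21, among them Slc16a8, a lactate transporter of that epithelium (-2.48 at P21), and Rrh, a gene of the opsin family (-2.41 at P21). Rgr, Lrat and Trpm1 were not detected on any array. The summed intensity of this list, most of it from Ttr, was 84658 to 88516 in P21 tumors and 99368 to 101978 in P21 wild-type CP. Of 8 melanocyte markers tested, none rose (0 also at an unadjusted p under 0.05), 3 fell at P0 and 2 fell at P21, and at P21 the sum lay between 2202 and 3315 for tumors and between 5027 and 6195 for wild-type CP. Tyr and Mlana were not detected on any array. The lists share Mitf, Pmel and Tyrp1, and Ttr and Otx2 also mark CP epithelium, so neither sum measures 1 cell type alone. The part of pigment cells in the Rpe65 level of P21 tumors was not tested.

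Markers of other cell types did move with the P21 tumors, where 10.5% of all genes tested passed as higher and 7.44% as lower. Of 7 astrocyte markers 5 rose at P21, among them Aqp4 (4.06) and Gfap (3.71), and 1 fell, Aldh1l1 (-1.10). Aldh1l1 was also lower in tumors at P0 (-0.83). Astrocyte sums at P21 were 23476 to 66327 in tumors (at most 42793 without P21 tumor 1) and 6089 to 7136 in wild-type CP. Of 18 meningeal and stromal fibroblast markers 8 rose, among them Col1a2 (2.97) and Slc6a13 (2.67), 1 fell and 9 did not pass. Tumor sums were 122500 to 145349 and wild-type sums were 114238 to 120418. A large part of these sums came from Igf2, which lay near the top of the scale and differed by 0.02 at P21. These sums thus do not measure the list evenly. Of 9 macrophage markers 6 rose, with tumor sums of 5855 to 9394 and wild-type sums of 3159 to 3220. Of 7 pericyte and smooth muscle markers 1 rose, Acta2 (3.02, adjusted p = 0.000238), the smooth muscle actin gene, and 1 fell, Abcc9 (-1.10). At an unadjusted p under 0.05, 2 were higher and 2 lower, and the median difference of the list was -0.08. Tumor sums were 13515 to 26562, most of it from Acta2, and wild-type sums were 2915 to 5179, so these sums do not show a rise of the list as a whole. P21 tumor 1 had the highest astrocyte sum, and it also had the highest Aldh1a1 and Rlbp1 levels of the 3 P21 tumors. Its Rpe65, Rbp4, Crabp2, Aldh1a2, Stra6 and Rdh5 levels were the lowest of the 3, and its Adh1 level lay between the others. The part of these cell types in the P21 differences of the 9 genes was not tested.

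Of 15 CP epithelial markers tested, none rose (0 also at an unadjusted p under 0.05), and 4 fell at P0 and 5 at P21. Their summed intensity was 266384 to 329819 in P0 tumors and 349719 to 403609 in P0 wild-type CP, and 298423 to 329915 and 403203 to 418705 at P21. All 9 cell division genes tested were higher in P0 tumors, with sums of 21455 to 23325 against 4358 to 6005, and 2 of the 9 were higher at P21. The lower Rlbp1 and Adh1 levels of tumors thus stood beside lower CP epithelial signals at both ages and, at P0, beside higher cell division signals, and the part of either in them was not tested. No endothelial, erythroid, oligodendrocyte or neuron marker passed limma's test in the tumor comparison at either age. At an unadjusted p under 0.05 there were 1 endothelial and 1 oligodendrocyte marker at P0, 2 endothelial and 2 erythroid markers at P21, and 0 neuron markers at both ages.

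**Figure D4:**
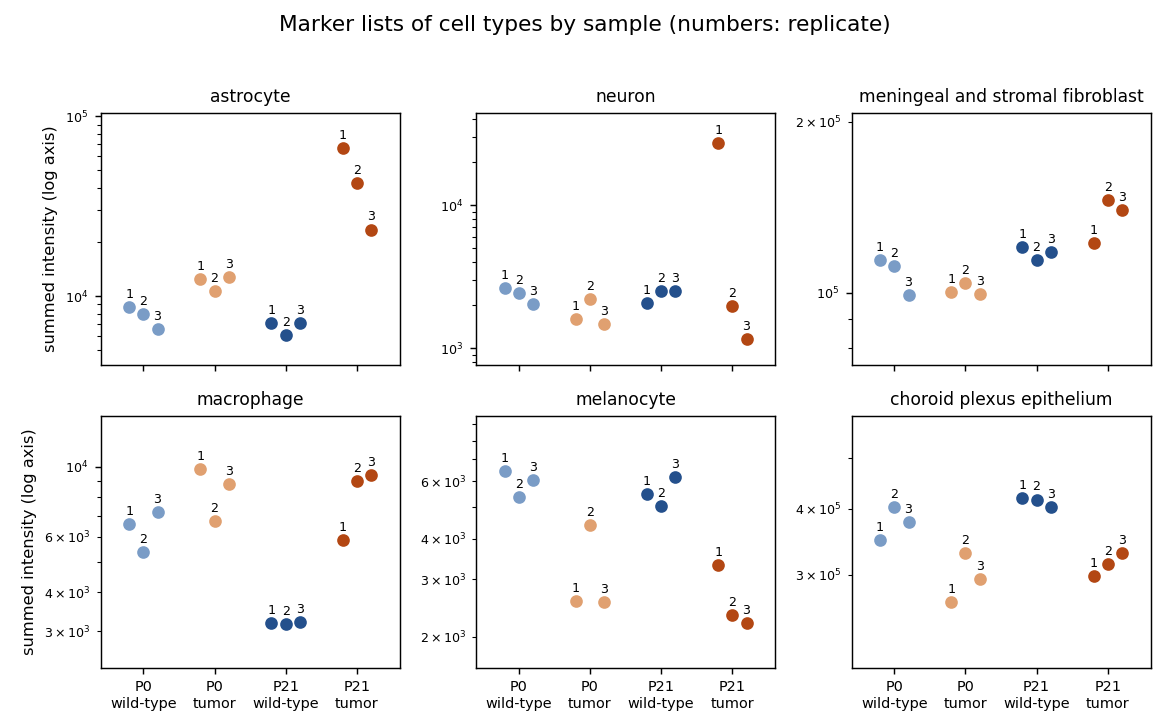
Summed normalized intensity (log axis) of 6 marker lists in each of the 12 samples, with the replicate number above each point. P21 tumor 1 stands alone in the neuron list at 26962, all 3 P21 tumors are high in the astrocyte list (23476 to 66327), and tumors are below wild-type CP of their age in the melanocyte and CP epithelium lists.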

How the data were processed

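The members and the gene lists were chosen with earlier results of these data known. Per the file headers, 1 table deposited by the authors gave scanner output: an average bead signal (a linear intensity, not normalized) and a detection p-value per probe and array. A second table deposited by the authors held normalized intensities, made by a method that the sources used here do not state. Its scale was linear and uncentred (column medians 153.0 to 153.1, Spearman 1 with the scanner values of the same array), and it served as an alternative only.

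With limma 3.58.1 in R 4.3.3, signals were background-corrected by normexp with an offset of 16 (936 negative control values inferred from the detection p-values), quantile-normalized over 12 arrays and log2-transformed. A probe was kept with a detection p-value under 0.05 on at least 3 arrays and 1 gene symbol (20021 of 45281). GEO's platform annotation, updated through RefSeq by gene ID or accession, gave 1 symbol for 34885 probes, several for 18 and none for 10378. The brightest probe stood for a gene, leaving 12379 genes. Group means were fitted over all 12 arrays with lmFit and eBayes (8 residual and 4.21 prior degrees of freedom), with p-values adjusted by Benjamini-Hochberg over all genes and a threshold of 0.05. The fit was tested on simulated data. With 3 arrays per group, array number sets the precision.

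Named genes were all members, up to 6 called pathway genes per tumor comparison with groups that did not overlap, 9 pathway genes named in the rule, up to 2 genes per marker list, and the 2 genes most like each member. Aldh1l1, the astrocyte marker that fell at P21, and Igf2, a large part of the fibroblast sum, were named as well. Pairing was checked from the replicate numbers of the labels. Deviations from group means correlated between same-numbered samples at P0 (r = 0.425, 0.432 and 0.104) but not at P21 (r = -0.0818, -0.0277 and -0.139). Between different numbers at P0, r ran from -0.411 to 0.097. The numbers thus appear to pair the P0 samples 1 and 2, while the value of sample 3 hardly stood out. Promoter sequences are from RefSeq, build GRCm38.p6. The alternatives were 23 settings: other background corrections, normalizations, filters, probe rules and samples in the fit, the authors' values, a replicate block, and leaving out each array.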

Additional observations from a re-analysis of the deposited data

Results flagged for a closer look

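The tumor difference changed between P0 and P21 past the threshold for 6 genes, 4 of the 9 members and 2 other genes of the pathway. For the members this is a description, since the differences it is made of were known when they were chosen. The 2 other genes come from lists chosen with earlier results known, so their tests are not independent of those results. The P21 difference minus the P0 difference, on the log2 scale with its SE and with 3 samples per group, was 4.38 ± 0.53 for Rpe65, 2.57 ± 0.47 for Aldh1a1, 1.80 ± 0.36 for Aldh1a2 and 2.21 ± 0.56 for Rbp4. By limma's test over all genes it was 1.88 ± 0.34 for Cyp1b1 (adjusted p = 0.0086) and 1.71 ± 0.34 for Lrp2 (adjusted p = 0.0143). Without P21 tumor 1 it was 1.86 for Cyp1b1 (adjusted p = 0.0154) and 1.89 for Lrp2 (adjusted p = 0.00934).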

How the results depend on the processing

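Of the 9 members' differences under the alternatives, 185 of 202 at P0, 196 of 202 at P21, 168 of 193 for the change of the tumor difference with age, 187 of 193 for age in wild-type CP and 155 of 193 for age in tumors kept their direction and their side of the threshold. At P0, 2 members were called in place of 1 with no background correction, with the authors' values, with the mean of probes and with the replicate block (Adh1 in each case), and 1 to 2 on leaving out 1 array. The filter for detection on all 12 arrays left 4 members with a probe and gave 0 called at P0, 2 at P21 in place of 6, 1 for the change of the tumor difference in place of 4, 2 for age in wild-type CP in place of 4 and 2 for age in tumors in place of 6. Leaving out 1 array gave 4 to 6 called at P21, 2 to 4 for the change of the tumor difference, 4 to 5 for age in wild-type CP and 3 to 6 for age in tumors, where no background correction also gave 3. Of the other pathway genes, 15 in place of 8 were called at P21 with only the 6 arrays of that age in the fit, and 5 to 12 on leaving out 1 array. The replicate block, fitted for the tumor comparisons and their change with age, also called Crabp2 at P21 (1.26), and changed no call of a member beyond those named here and in the report. Differences that changed sign were all uncalled. At P0 they were Aldh1a1 (-0.0014 with median scaling, -0.0838 with cyclic loess, -0.108 to 0.201 on leaving out 1 array), Aldh1a2 (-0.0086 with the mean of probes), Stra6 (1e-04 with cyclic loess, -0.496 to 0.299), Rpe65 (-0.0013 with cyclic loess, -0.229 to 0.272) and Crabp2 (-1.14 to 0.405). For the change of the tumor difference it was Rdh5 (-0.372 with the mean of probes, -0.107 to 0.214). For age they were Rpe65 in wild-type CP (-0.190 to 0.533) and, in tumors, Stra6 (-0.116 to 0.679) and Crabp2 (-0.0734 to 1.47). The Rbp4 call for the change of the tumor difference was also lost with no background correction (0.88), an offset of 50 (1.43), the authors' values (0.98), no detection filter and the probe-level fit. Median scaling moved the median over all genes from -0.05 to 0.08 at P21 and from 0.02 to 0.12 for the change with age. The cause of these changes was not tested. With all 12 arrays required to detect a probe, Aldh1a1, Crabp2, Rbp4, Rlbp1 and Rpe65 could not be fitted, and signals near background bound what can be said of them.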
